A study of Mus musculus with 12 samples.

Results

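The genes described are 29 genes of cholesterol synthesis and sterol handling, chosen by symbol from a fixed list and all found among 24310 features in the deposited tables. They comprise 18 enzymes of synthesis and 6 genes that encode or control the SREBP transcription factors or carry sterol. The others are 4 genes of the LXR receptors and cholesterol efflux, and 1 gene of cholesterol esterification. All 29 passed the filter on low values (RPKM 1 or more in 4 or more of the 12 libraries), as did 10886 of all features. RPKM is a read count corrected for transcript length in kilobases and for the total of mapped reads. Some genes of the pathway are not analysed here.

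RNA was sequenced from CMM cells, GFP positive mouse leukaemia cells of the inv(16) type of acute myeloid leukaemia, which were grown in C57BL/6 mice. Every mouse carried the leukaemia, and treatment began at about 1% GFP positive cells in blood. The 3 groups of 4 libraries are labelled PBS (vehicle), CpG-scrODN (a TLR9-stimulating CpG oligonucleotide joined to a scrambled sequence) and CpG-STAT3dODN (the same kind of CpG oligonucleotide joined to a decoy for the transcription factor STAT3). Each was given intravenously 3 times on alternate days, and c-Kit positive spleen cells were enriched 1 day after the last dose; the design text also speaks of sorting for GFP. The age and sex of the mice are not stated in the labels. Since no label ties a library to its own mouse, the p-values describe the spread among libraries, and that spread may be technical.

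The labels and the tables name the groups differently in 12 of 12 files. Libraries labelled PBS are headed DEC, those labelled CpG-scrODN are headed PBS, and those labelled CpG-STAT3dODN are headed SCR. Groups are called here by their labels, and no difference is assigned to a treatment, because which name is right cannot be told apart with these files.

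Cells make cholesterol from acetyl-CoA through mevalonate, farnesyl diphosphate, squalene and lanosterol. When sterol in the endoplasmic reticulum is low, SCAP escorts SREBP2 to the Golgi for cleavage, and the released factor switches on the synthesis enzymes; INSIG proteins hold the complex back when sterol is plentiful. When sterol is high, oxysterols activate the LXR receptors, which raise genes of cholesterol export and of fatty acid desaturation. Macrophages, which belong to the myeloid lineage, are well known for their LXR responses.

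Depth estimated from the tables was 31470000 to 36230000 reads per library, so an RPKM of 1 stood for about 31.5 reads per kilobase at the lowest depth. The markers of the labelled cell (Kit, Mpo, Elane, Prtn3, Ctsg, Cd34, Myb and Gfi1) were present in all groups, summing to 369 to 483 RPKM under the PBS label, 171 to 223 under CpG-scrODN and 241 to 402 under CpG-STAT3dODN; 5 of the 8 fell in CpG-scrODN against PBS. None of the 8 was called higher, but they did not move together. Kit was 10.5, 12.8, 37.8 and 22.9 RPKM in PBS and 31.3, 28.7, 28.3 and 40.5 in CpG-scrODN. Cd34 was 6.53, 14.5, 33.8 and 5.15, then 38, 25.4, 27.6 and 24.5. Mpo, a granule gene, was 93.8, 119, 95.8 and 91.6, then 30, 17.2, 17.4 and 30. The lower sum is therefore not a fall of every marker of the labelled cell. In bulk samples, fewer cells of a type and less RNA per cell cannot be told apart. Of the 14 B cell markers tested, 14 fell in CpG-scrODN against PBS and 13 in CpG-STAT3dODN against PBS (limma adjusted p under 0.05). Of all genes tested, 4.04% fell in CpG-scrODN and 1.83% in CpG-STAT3dODN against PBS. The 15 B cell markers found summed to 261 to 867, 28 to 50.7 and 52.1 to 148 RPKM in the 3 groups in that order. No B cell marker was at 0 in every library of a group. In CpG-scrODN against PBS, 3 of 5 plasma cell, 3 of 3 T cell, 2 of 6 mast cell or basophil and 1 of 7 monocyte markers tested fell. In CpG-STAT3dODN against PBS, 2 of 5 plasma cell, 3 of 3 T cell and 1 of 13 immediate early genes fell. For T cells 8 markers were found and 3 passed the filter. The 8 summed to 16.4 to 56.1 RPKM in PBS, 2.39 to 4.76 in CpG-scrODN and 2.68 to 5.75 in CpG-STAT3dODN. The filter can be met by the 4 PBS libraries alone, which favours a fall in any list. The B cell, plasma cell and T cell counts are therefore no separate support. No NK cell, erythroid, megakaryocyte, red pulp macrophage, neutrophil or dendritic cell marker was called in either. Of those found, 2 of 6 NK cell, 1 of 6 megakaryocyte and 2 of 7 dendritic cell markers were tested. These lists are not shown to be level. Summed megakaryocyte RPKM was 17.9 to 92.5 in PBS and 92.7 to 133 in CpG-scrODN. The 8 neutrophil markers had a median difference of -1.3 in CpG-scrODN minus PBS. No marker of any list was called between CpG-STAT3dODN and CpG-scrODN.

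PBS replicate 4 and CpG-STAT3dODN replicate 4 stood apart from the other 10 libraries. Fos, an immediate early gene, was 12.9 and 5.91 RPKM in them against 486 to 1160 in the others. Both also had the highest summed B cell RPKM of their groups, 867 against 261 to 376 and 148 against 52.1 to 77.4. Their summed mast cell or basophil RPKM was 529 and 768, the lowest of the 12 libraries, against 1120 to 3750 in the others. Counts of members called and most of the fitted differences printed are given with and without both libraries. Hmgcs1, Cyp51, Dhcr7, Abca1 and Mylip are described by their values only. The part of the marker differences in the results was not tested.

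All 29 genes were detected in all 12 libraries, over a wide range of levels. The highest median over the 12 libraries was that of Srebf2, which encodes SREBP2, at 39.8 RPKM, followed by Srebf1 (35.4), Nr1h2 (31.2) and Scap (30.5); neighbours in this order overlapped in their ranges over libraries. Among the enzymes, Fdps (25.9), Ebp (23.4) and Acat2 (20.4) had the highest medians and Tm7sf2 (2.12) and Hsd17b7 (2.97) the lowest. The LXR pair differed in level: Nr1h2, encoding LXR beta, lay between 28.1 and 37.8 RPKM, and Nr1h3, encoding LXR alpha, between 0.913 and 5.19. Abca1, the exporter of cholesterol to lipid-poor apolipoprotein, had the lowest median of all 29 genes, 0.858 RPKM.

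**Figure D1:**
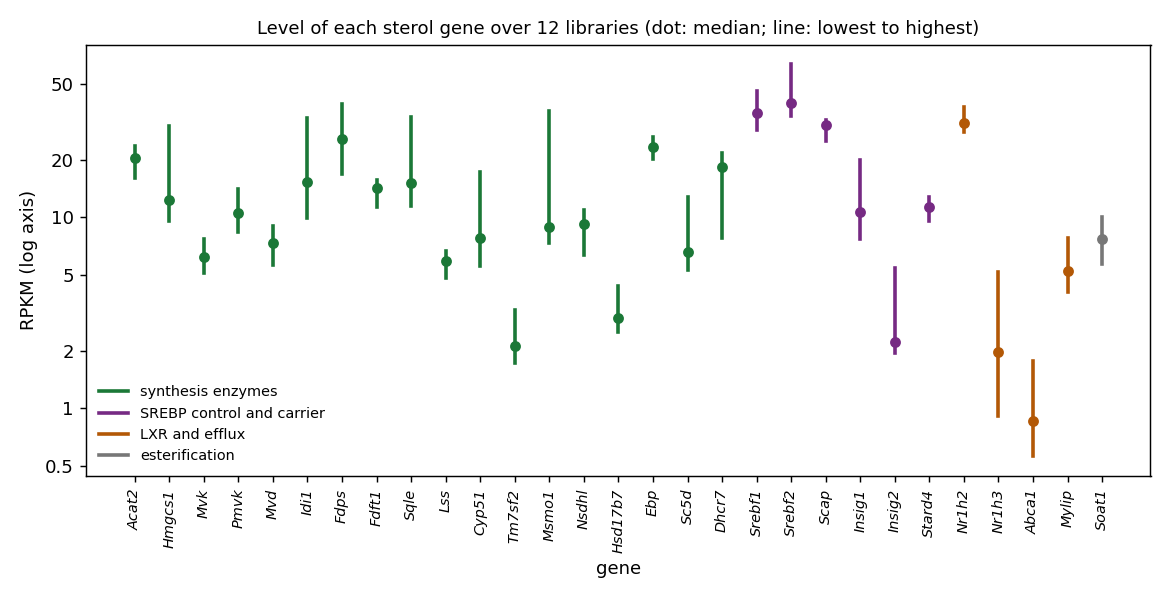
RPKM of each of the 29 genes on a log axis, in the order of the pathway and coloured by role; the dot is the median of 12 libraries and the line runs from the lowest to the highest library. Srebf2 has the highest median, 39.8, and Abca1 the lowest, 0.858.

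The largest movements among the synthesis genes were between libraries and not between the labelled groups. In both libraries that stood apart, 10 of 29 genes lay above each of the other 10 libraries, against 23.4% of all genes tested. These were the enzymes Hmgcs1, Idi1, Sqle, Cyp51, Msmo1 and Sc5d, the regulators Srebf2, Insig1 and Insig2, and Nr1h2. Dhcr7 and Lss lay below each of the other 10 libraries in both, 2 of 29 genes against 18.8% of all. This pattern was looked for after the values were seen.

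How far above they lay depended on the ratio asked for, and 5 ratios were tried after the values were seen. Both libraries reached at least 1.25 times the highest of the other 10 in 9 of 29 genes (8.01% of all genes tested), at least 1.4 times in 8 (4.74%) and at least 1.5 times in 5 (3.46%). At 1.75 times and at 2 times there were 2 genes, against 2.07% and 1.32% of all genes, and these were Hmgcs1 and Msmo1. Of the 18 enzymes, 6, 6, 5, 2 and 2 reached the 5 ratios.

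The promoter windows of the 4 enzymes with the largest ratios are shown, because these genes were high together, with those of Dhcr7, which was low in the same libraries. They are RefSeq windows of the GRCm38.p6 assembly, from 250 bases before to 50 after a listed start, written 5′ to 3′ on the gene's strand. Capitals mark TCACNCCAC, part of the sterol element that SREBP binds, and CCAAT, the NF-Y box, each searched on both strands, so that a match on the other strand reads as its reverse complement (ATTGG for CCAAT). Hmgcs1, encoding the cytosolic HMG-CoA synthase, is at chr13:119690101-119690400 on the plus strand, Idi1 at chr13:8885356-8885655 on the plus strand, Cyp51 at chr5:4104648-4104947 on the minus strand and Msmo1 at chr8:64733529-64733828 on the minus strand. Of the 3 windows listed for Dhcr7, number 1 is at chr7:143822917-143823216 and number 3 at chr7:143829964-143830263, both on the plus strand.
Hmgcs1: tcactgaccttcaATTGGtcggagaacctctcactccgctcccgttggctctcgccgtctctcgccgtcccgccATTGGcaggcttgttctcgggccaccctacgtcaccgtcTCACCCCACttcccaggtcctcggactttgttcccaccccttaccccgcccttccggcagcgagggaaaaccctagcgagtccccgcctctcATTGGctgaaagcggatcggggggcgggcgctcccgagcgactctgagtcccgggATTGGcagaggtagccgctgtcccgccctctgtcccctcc
Idi1: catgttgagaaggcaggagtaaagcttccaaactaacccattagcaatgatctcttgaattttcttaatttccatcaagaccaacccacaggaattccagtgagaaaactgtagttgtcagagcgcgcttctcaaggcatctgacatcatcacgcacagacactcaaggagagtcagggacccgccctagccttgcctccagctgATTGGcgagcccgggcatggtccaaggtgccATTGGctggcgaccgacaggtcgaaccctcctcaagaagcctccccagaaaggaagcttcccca
Cyp51: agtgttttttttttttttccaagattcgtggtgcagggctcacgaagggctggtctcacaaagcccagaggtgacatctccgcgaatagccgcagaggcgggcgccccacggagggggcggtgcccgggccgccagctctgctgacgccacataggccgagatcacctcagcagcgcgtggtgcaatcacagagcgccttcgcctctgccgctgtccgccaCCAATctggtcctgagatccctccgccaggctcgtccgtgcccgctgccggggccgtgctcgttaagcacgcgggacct
Msmo1: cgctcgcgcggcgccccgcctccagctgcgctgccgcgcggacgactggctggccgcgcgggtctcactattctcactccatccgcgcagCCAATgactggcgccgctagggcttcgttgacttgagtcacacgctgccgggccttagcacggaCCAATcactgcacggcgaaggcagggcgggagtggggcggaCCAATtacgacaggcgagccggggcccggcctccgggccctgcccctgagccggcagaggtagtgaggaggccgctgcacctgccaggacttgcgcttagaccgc
Dhcr7 window 1: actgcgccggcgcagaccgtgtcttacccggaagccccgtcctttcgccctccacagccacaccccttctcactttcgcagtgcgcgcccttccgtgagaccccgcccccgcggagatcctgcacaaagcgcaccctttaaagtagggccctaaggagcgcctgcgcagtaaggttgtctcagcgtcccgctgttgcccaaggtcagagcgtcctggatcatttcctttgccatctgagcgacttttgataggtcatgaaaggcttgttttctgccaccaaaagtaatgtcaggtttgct
Dhcr7 window 3: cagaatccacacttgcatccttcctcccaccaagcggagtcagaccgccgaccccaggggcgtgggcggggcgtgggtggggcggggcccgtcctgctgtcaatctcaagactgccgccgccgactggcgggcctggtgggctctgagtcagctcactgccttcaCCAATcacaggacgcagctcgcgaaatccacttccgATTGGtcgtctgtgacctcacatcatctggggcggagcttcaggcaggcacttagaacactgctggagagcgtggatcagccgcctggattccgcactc

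In these windows, TCACNCCAC was found in 1 of 34 windows of the members, that of Hmgcs1, where it lay 137 bases before the start; 1.24% of all 32851 windows hold it. CCAAT was found in 14 of 18 enzyme windows (77.8%), which belong to 14 of 15 enzymes with a window, and in 7 of 16 windows of the other members (43.8%), against 37.4% of all windows. The windows of Hmgcs1, Idi1, Cyp51 and Msmo1 and window 3 of Dhcr7 held it. GGGCGG was in 15 of 18 enzyme windows and 35.7% of all, and CACGTG in 3 of 18 and 7.15%. The exact LXR repeat, AGGTCA given again after NNNN, was in 0 of 34 member windows and 0.0152% of all. Repeats that differ from it in any letter were not searched, so the 0 does not show that a window lacks an LXR site. All motifs named were searched on both strands, and overlapping matches of different motifs were each counted. A match is a description of letters, and its absence says only that they are not in this window. Windows were matched for 25 of 29 members.

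Msmo1, methylsterol monooxygenase, which removes methyl groups from lanosterol products, showed the largest range of the 18 enzymes. Its RPKM was 11.5, 10.9, 9.17 and 31.6 in replicates 1 to 4 labelled PBS, 8.16, 7.65, 7.88 and 8.76 in CpG-scrODN, and 8.47, 7.34, 11.8 and 36.1 in CpG-STAT3dODN. The replicates 4 of PBS and CpG-STAT3dODN were high, and the 4 CpG-scrODN libraries lay below all 4 PBS libraries. The fitted difference, CpG-scrODN minus PBS, was -0.71 ± 0.45 on the log2(RPKM + 1) scale (SE; limma adjusted p = 0.478), and -0.33 ± 0.13 without both libraries that stood apart (adjusted p = 0.208).

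Idi1, the isopentenyl diphosphate isomerase, was 19.5, 16.3, 14.2 and 33 RPKM in PBS, 13.5, 14.6, 12.5 and 12.7 in CpG-scrODN, and 16.1, 9.97, 18.8 and 33.2 in CpG-STAT3dODN. The same replicates 4 were highest, and the PBS and CpG-scrODN groups overlapped. The difference was -0.53 ± 0.31 (limma adjusted p = 0.44), and -0.29 ± 0.18 without both libraries that stood apart (adjusted p = 0.437). Fdps, farnesyl diphosphate synthase, was 37.6, 36.7, 23.4 and 37.5 in PBS, 23.6, 24.6, 24.5 and 20.2 in CpG-scrODN, and 27.1, 16.9, 31.2 and 39.2 in CpG-STAT3dODN. Here PBS replicate 3 lay with the CpG-scrODN libraries while the other 3 PBS libraries lay above them, and PBS replicate 4 was not set apart. The difference was -0.5 ± 0.22 (limma adjusted p = 0.304), and -0.44 ± 0.21 in the 10 libraries (adjusted p = 0.299).

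The values of the next genes are given although the rule for named genes did not choose them; they were picked after the values were seen. Hmgcs1 was 13.1, 12.8, 11.7 and 28.7 RPKM in PBS, 11, 10.8, 9.6 and 12.8 in CpG-scrODN, and 12, 9.63, 13.3 and 30.3 in CpG-STAT3dODN, and both libraries that stood apart were at least 2 times the highest of the other 10. Cyp51, lanosterol demethylase, showed the same 2 libraries on top, at 17.4 and 17 RPKM against 5.59 to 10.3 in the other 10. Dhcr7, the reductase of the last step, ran the other way, falling short of the other 10 libraries, which held 16.5 to 21.7 RPKM, with 8.22 and 7.77.

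**Figure D2:**
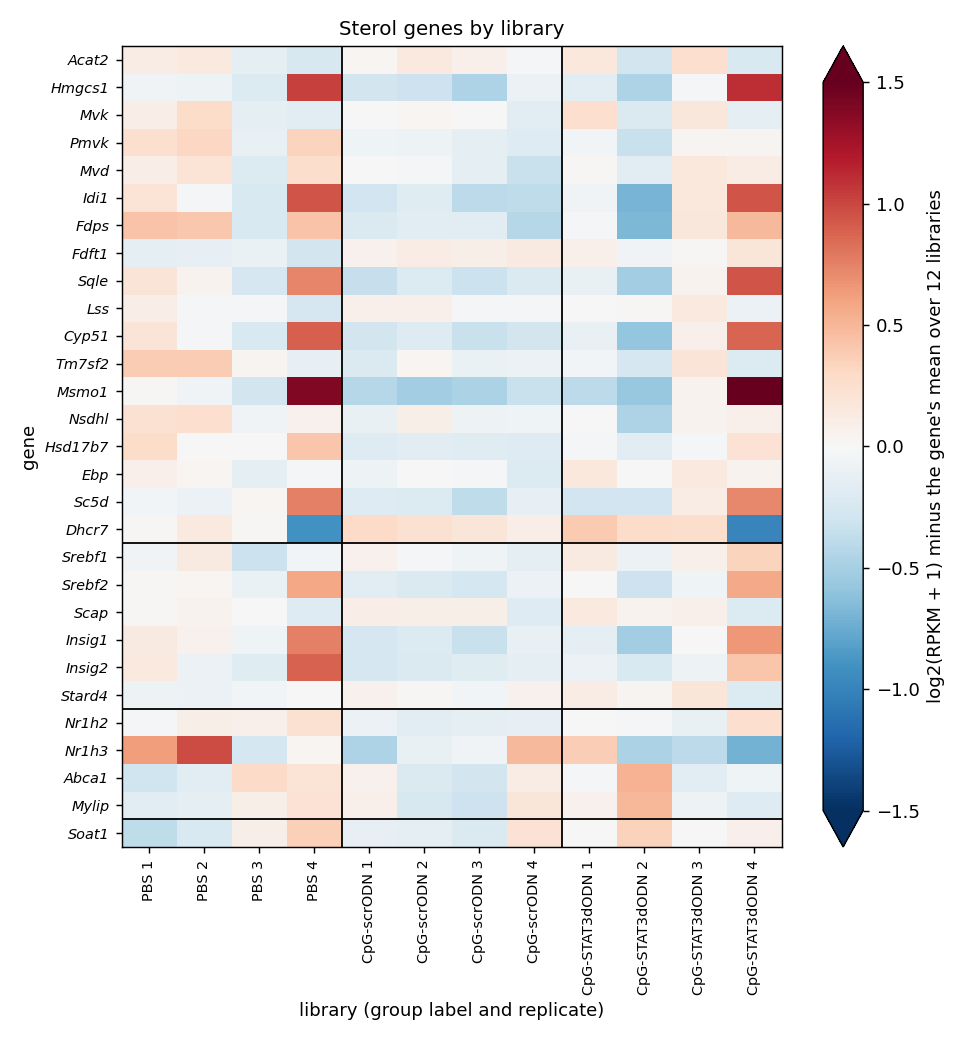
log2(RPKM + 1) of the 29 genes in each library, minus the gene's own mean over the 12 libraries, grouped by label and by role. The columns of PBS replicate 4 and CpG-STAT3dODN replicate 4 are red for 10 genes that lie above all other libraries, and blue for Dhcr7.

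No synthesis enzyme passed the test between labelled groups. In CpG-scrODN against PBS 0 of 29 genes were called, where 4.15% of all genes tested were (limma, Benjamini-Hochberg over 10886 genes, two-sided). In CpG-STAT3dODN against PBS it was 0 of 29 with 1.86% of all genes, and in CpG-STAT3dODN against CpG-scrODN 0 of 29 with 0% of all genes. At an unadjusted p under 0.05 there were 5, 2 and 1 genes, against 15.6%, 9.4% and 2.71% of all genes. Both comparisons with PBS share its 4 libraries. A change of 0.5 on the log2 scale in a simulation of the CpG-scrODN against PBS comparison was recovered for 54% of 50 changed genes. A change of 1 was recovered for 89% of 100. These shares do not give the recovery of each member, whose SE differed widely in this comparison. It was 0.45 for Msmo1, 0.33 for Hmgcs1, 0.31 for Idi1 and 0.29 for Cyp51, against 0.07 for Fdft1.

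The 18 enzymes had a median fitted difference of -0.29 in CpG-scrODN minus PBS, with 14 of 18 below 0; the median of all genes was -0.05. In CpG-STAT3dODN minus PBS the median was -0.1 with 13 below 0 (all genes -0.01), and in CpG-STAT3dODN minus CpG-scrODN it was 0.16 with 5 below 0 (all genes 0.03). Without both libraries that stood apart the 3 medians were -0.19, -0.14 and 0.07. The CpG-STAT3dODN minus PBS median was 0.07 without CpG-STAT3dODN replicate 2 and 0 without PBS replicate 4, so its sign rested on single libraries. No enzyme median was tested, because the members were chosen with earlier results known.

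All 4 values of one group lay beyond all 4 of the other for 6 of 29 genes in CpG-scrODN against PBS (13.9% of all genes), 1 in CpG-STAT3dODN against PBS (5.04%) and 1, Ebp, in CpG-STAT3dODN against CpG-scrODN (4.25%). In the first comparison these were Msmo1, Sc5d, Hsd17b7, Insig1 and Nr1h2, with CpG-scrODN lower (5 of 29, against 10% of all genes), and Fdft1, with CpG-scrODN higher. In the other 2 comparisons 0 of 29 were lower, against 4.23% and 0.873% of all genes. Fdft1, squalene synthase and the first committed step of sterol synthesis, was 12.3, 12.7, 12.8 and 11.3 RPKM in PBS, 14.6, 15, 14.8 and 15.3 in CpG-scrODN, and 14.7, 13.3, 14.1 and 15.8 in CpG-STAT3dODN. Every PBS library lay below every other library, and replicate 4 of PBS was the lowest of 12. The differences from PBS were 0.26 ± 0.07 for CpG-scrODN (limma adjusted p = 0.0637) and 0.22 ± 0.07 for CpG-STAT3dODN (adjusted p = 0.223).

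Without both libraries that stood apart, Fdft1 passed the test in CpG-scrODN against PBS, with a difference of 0.23 ± 0.05 (limma adjusted p = 0.033), as 1 of 29 genes against 6.3% of all genes. Its difference in CpG-STAT3dODN minus PBS was then 0.14 ± 0.06 (adjusted p = 0.288). In the other 2 comparisons 0 of 29 were called in these 10 libraries, against 3.1% and 0% of all genes. In this set of libraries 7, 5 and 1 genes did not overlap, against 16.5%, 16.4% and 6.82%. Exons of Fdft1 overlap those of Ctsb on the opposite strand over 774 bases, and whether counting used the strand is not stated. Ctsb differed by -0.04 in CpG-scrODN minus PBS (limma adjusted p = 0.876). Pmvk, phosphomevalonate kinase, differed by -0.31 ± 0.12 in CpG-scrODN minus PBS (limma adjusted p = 0.199) and by -0.26 ± 0.12 in the 10 libraries; it passed without PBS replicate 3 (-0.42 ± 0.1, adjusted p = 0.039). Hsd17b7 differed by -0.36 ± 0.11 (limma adjusted p = 0.134), and by -0.28 ± 0.09 in the 10 libraries (adjusted p = 0.0973).

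Exons of 4 further members overlap those of another protein-coding gene, so that reads may be shared: Fdps with Gm43738 over 1124 bases and Tm7sf2 with Vps51 over 532 bases on the same strand, and Cyp51 with Akap9 over 166 bases and Srebf1 with Rai1 over 109 bases on the opposite strand. Acat2 has a near copy, Acat3, which stayed at or below 0.511 RPKM in every library.

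**Figure D3:**
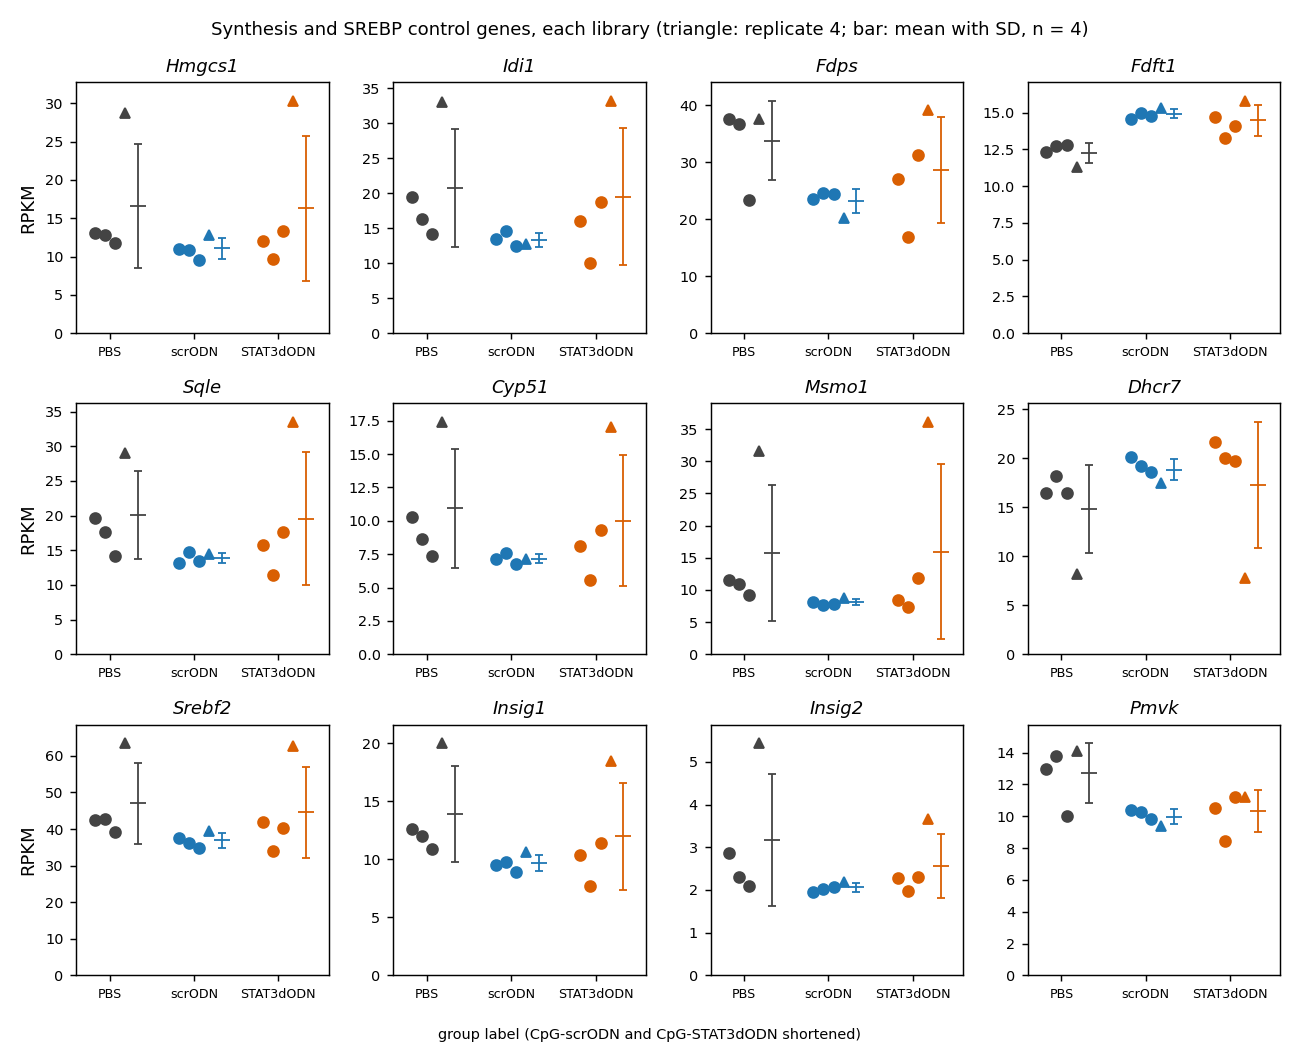
RPKM of 12 synthesis and control genes in each library, by group label; triangles are replicates 4, other points replicates 1 to 3, and the bar is the mean with SD (n = 4). Triangles of PBS and CpG-STAT3dODN lie far above the other points for Msmo1, Hmgcs1, Idi1 and Cyp51, and below them for Dhcr7.

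**Figure D4:**
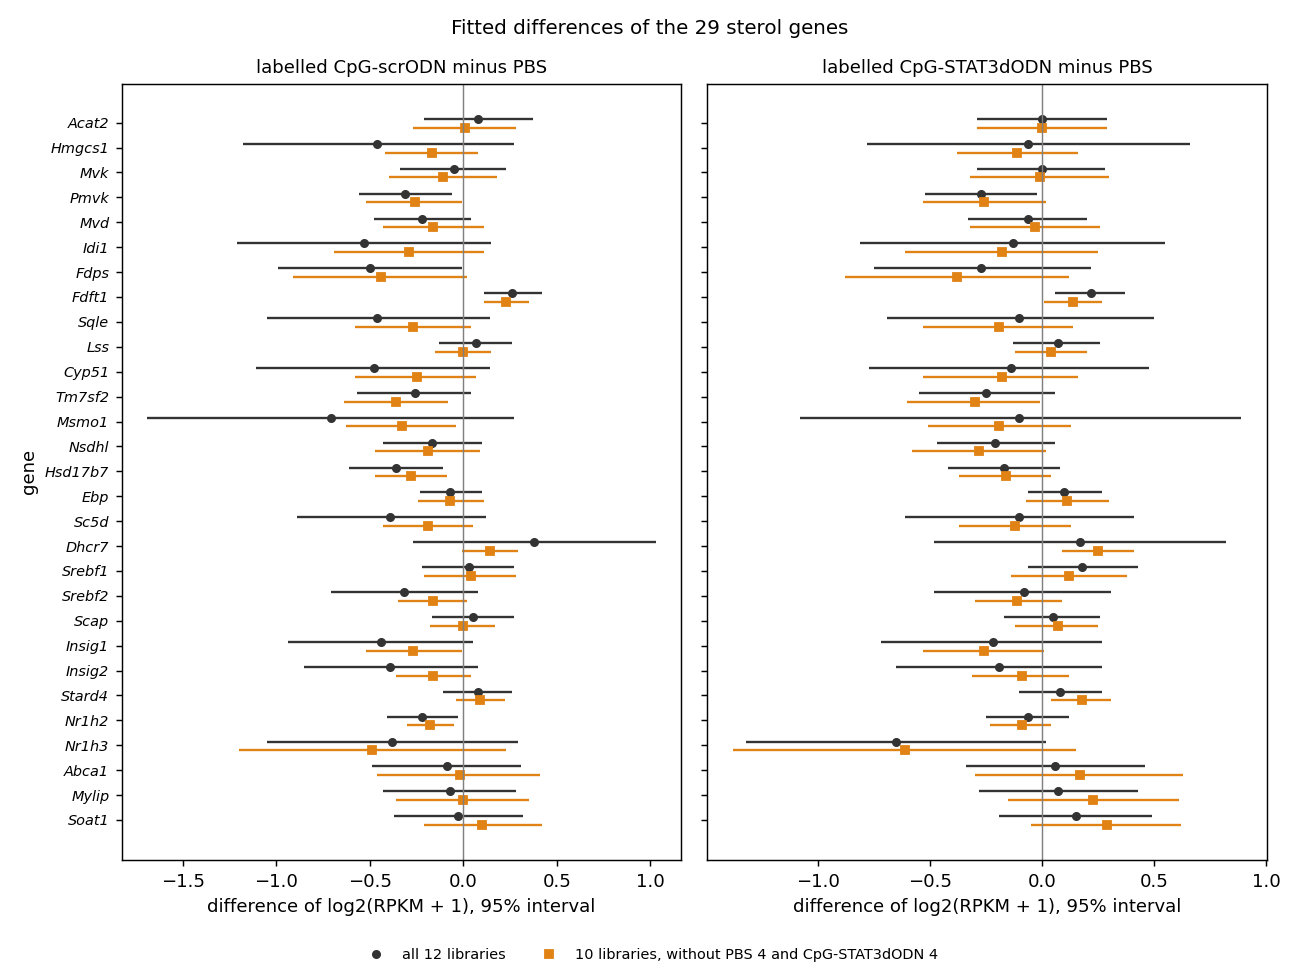
Fitted differences from the PBS label for the 29 genes, with 95% intervals, from all 12 libraries (circles) and from 10 (squares). For CpG-scrODN minus PBS the interval of Msmo1 runs from -1.69 to 0.27 with 12 libraries and from -0.63 to -0.04 with 10, and that of Fdft1 lies above 0 with either set.

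The other 10 libraries also differed among themselves, in a pattern looked for after the values were seen. CpG-STAT3dODN replicate 2 was the lowest of 12 libraries in 10 of 18 enzymes and 12 of 29 genes, against 13.7% of all genes. Of the 10 libraries that did not stand apart, the highest was PBS replicate 1, PBS replicate 2 or CpG-STAT3dODN replicate 3 for 15 of 18 enzymes, against 43.2% of all genes. Erythroid markers moved in part the same way in these 10 libraries. Their summed RPKM was 7990, 2180 and 3510 in these 3 libraries, 361 in CpG-STAT3dODN replicate 2, and 392 to 1420 in the other 6. PBS replicate 3, with 392, was the lowest of the 10 for 0 of 18 enzymes. PBS replicate 4 and CpG-STAT3dODN replicate 4 had 647 and 1990. Their enzymes summed to 298 and 312 RPKM, against 246 in PBS replicate 1. Other markers moved in part the opposite way. Kit was 10.5, 12.8 and 25.7 RPKM in PBS replicates 1 and 2 and CpG-STAT3dODN replicate 3. It was 51.1 in CpG-STAT3dODN replicate 2 and 27.6 to 40.5 in the other 6. Cd34 was 6.53, 14.5 and 22, then 43.1, then 23 to 38. Megakaryocyte markers summed to 37.9, 70.8 and 93.8, then 143, then 92.5 to 133. The part of erythroid RNA, or of these other markers, in the levels of the enzymes was not tested. Tm7sf2 and Hsd17b7, sterol reductases of late synthesis, and Mvk, Mvd, Acat2, Lss, Nsdhl and Ebp all had a fold range below 2 over the 12 libraries.

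Of the 6 SREBP control and carrier genes, 3 (Srebf2, Insig1 and Insig2) were above the other 10 libraries in both that stood apart, and 3 (Srebf1, Scap and Stard4) were not. Srebf2 was 42.5, 42.7, 39.3 and 63.5 RPKM in PBS, 37.6, 36.1, 34.7 and 39.4 in CpG-scrODN, and 41.9, 33.9, 40.2 and 62.6 in CpG-STAT3dODN. Insig1, which holds SCAP in the endoplasmic reticulum and is itself an SREBP target, was 12.6, 12, 10.9 and 20 in PBS, 9.49, 9.77, 8.92 and 10.6 in CpG-scrODN, and 10.4, 7.7, 11.4 and 18.5 in CpG-STAT3dODN. Both had their 2 highest values in PBS replicate 4 and CpG-STAT3dODN replicate 4. For Insig1 the CpG-scrODN libraries lay below all PBS libraries.

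Insig2, the other INSIG, was 2.86, 2.3, 2.1 and 5.44 RPKM in PBS, 1.96, 2.02, 2.07 and 2.19 in CpG-scrODN, and 2.28, 1.98, 2.31 and 3.66 in CpG-STAT3dODN. The same 2 libraries were on top, and the groups overlapped. CpG-scrODN minus PBS was -0.32 ± 0.18 for Srebf2, -0.44 ± 0.23 for Insig1 and -0.39 ± 0.21 for Insig2 (limma adjusted p 0.435, 0.385 and 0.414). Without both libraries that stood apart, these were -0.16 ± 0.08, -0.27 ± 0.12 and -0.16 ± 0.09 (adjusted p 0.326, 0.252 and 0.404). Srebf1, Scap and Stard4, a carrier of sterol, differed by 0.03, 0.05 and 0.08 in the same comparison, and by 0.04, 0 and 0.09 in the 10 libraries.

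Of the 4 LXR and efflux genes, Nr1h2 was above the other 10 libraries in both that stood apart, and Nr1h3, Abca1 and Mylip were not. Nr1h3 was 3.87, 5.19, 1.62 and 2.21 RPKM in PBS, 1.27, 1.91, 2.03 and 3.4 in CpG-scrODN, and 3.06, 1.27, 1.39 and 0.913 in CpG-STAT3dODN. The groups overlapped, and PBS replicates 1 and 2 were the 2 highest. The difference was -0.38 ± 0.31 in CpG-scrODN and -0.65 ± 0.31 in CpG-STAT3dODN against PBS (limma adjusted p 0.583 and 0.562), and -0.49 ± 0.32 and -0.61 ± 0.34 in the 10 libraries (adjusted p 0.475 and 0.465). Red pulp macrophage markers summed to 131 and 156 RPKM in PBS replicates 1 and 2 and to 179 in CpG-scrODN replicate 4, the 3 libraries with the most Nr1h3, against 50.5 to 87.2 in the others. Their part in the Nr1h3 values was not tested.

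Nr1h2 was 31.3, 33.5, 33.4 and 37 RPKM in PBS, 29.7, 28.1, 28.6 and 28.8 in CpG-scrODN, and 31.6, 31.1, 29.1 and 37.8 in CpG-STAT3dODN, with CpG-scrODN below all PBS libraries. Its difference was -0.22 ± 0.09 (limma adjusted p = 0.231), and -0.18 ± 0.06 in the 10 libraries (adjusted p = 0.109). Abca1 was 0.56, 0.728, 1.35 and 1.22 in PBS, 1.02, 0.656, 0.588 and 1.07 in CpG-scrODN, and 0.874, 1.77, 0.731 and 0.842 in CpG-STAT3dODN, with CpG-STAT3dODN replicate 2 highest. Mylip, an LXR-induced ligase, was 4.59, 4.7, 5.67 and 6.27, then 5.58, 4.33, 4.05 and 6.1, then 5.54, 7.85, 4.93 and 4.51 RPKM in the same order of groups, and the groups overlapped.

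Soat1, which esterifies cholesterol, was 5.69, 6.41, 8.26 and 10.1 RPKM in PBS, 7.02, 6.82, 6.46 and 9.03 in CpG-scrODN, and 7.69, 10, 7.74 and 8.21 in CpG-STAT3dODN. The 3 groups overlapped, and with all 12 libraries the differences lay between -0.03 and 0.18 on the log2 scale. In the 10 libraries CpG-STAT3dODN minus PBS was 0.29 ± 0.15 (limma adjusted p = 0.426). Its fold range over the 12 libraries was 1.77.

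**Figure D5:**
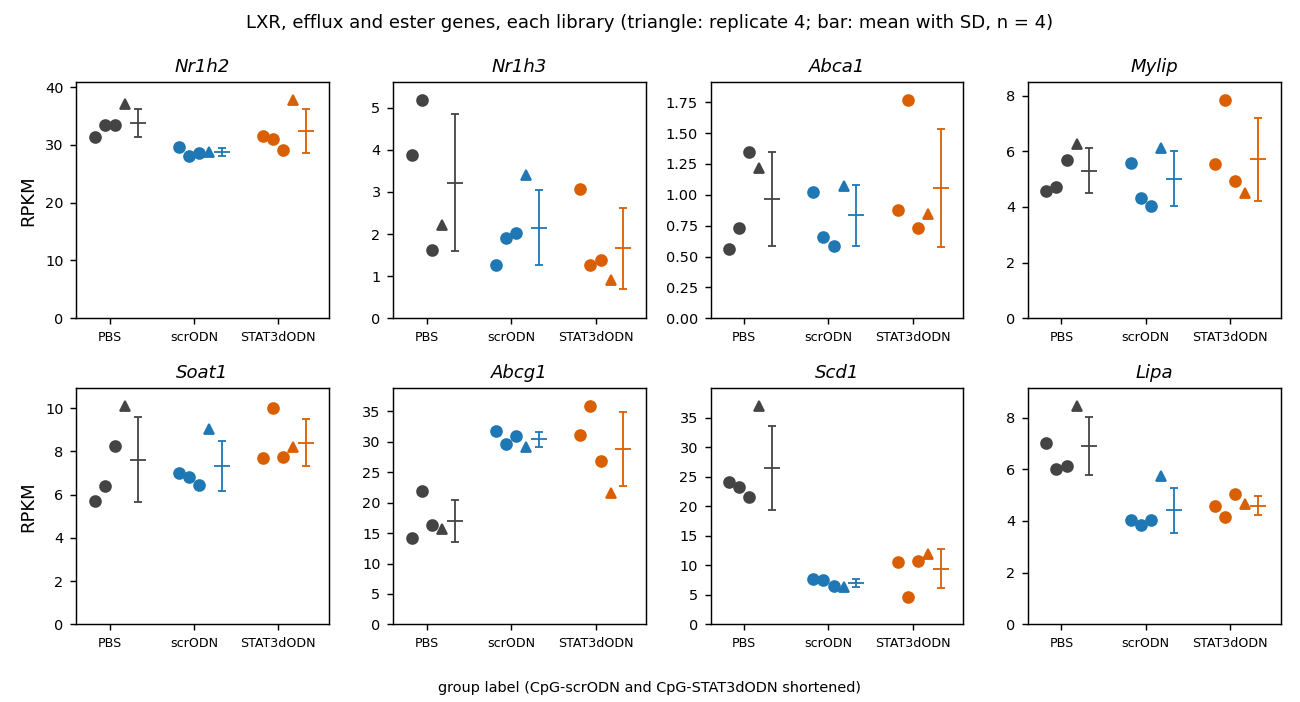
RPKM of LXR, efflux and ester genes in each library, by group label, with triangles for replicates 4 and the bar for the mean with SD (n = 4). Abcg1 is higher and Scd1 lower in both other groups than in PBS, and Nr1h3, Abca1, Mylip and Soat1 overlap among the groups.

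Among 82 other genes of the pathway, 70 passed the filter, and few were called. In CpG-scrODN against PBS 1 was higher and 2 were lower, where 0.11% and 4.04% of all genes were. In CpG-STAT3dODN against PBS 1 was higher and 1 lower, against 0.0276% and 1.83% of all genes, and in CpG-STAT3dODN against CpG-scrODN 0 of 70 were called. They are 3 genes: Abcg1, a cholesterol exporter, Scd1, a stearoyl-CoA desaturase and LXR and SREBP target, and Lipa, the lysosomal acid lipase that frees cholesterol from its esters. Scd1 was counted in the list of LXR targets. With Scd1 placed there, 0 of the 12 tested genes on the list of SREBP fatty acid targets were called in any comparison. Likewise 0 of 12 other SREBP processing genes and 0 of 12 genes of the isoprenoid branch were called. In the 3 comparisons 4.15%, 1.86% and 0% of all genes were called. Lists of 12 are therefore not shown to be unchanged by holding 0 calls.

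Abcg1 was 14.2, 22, 16.3 and 15.6 RPKM in PBS, 31.8, 29.7, 31 and 29.2 in CpG-scrODN, and 31.1, 35.9, 26.9 and 21.6 in CpG-STAT3dODN. PBS and CpG-scrODN did not overlap, while CpG-STAT3dODN replicate 4 lay below PBS replicate 2. It rose by 0.82 ± 0.15 in CpG-scrODN (limma adjusted p = 0.00934) and by 0.73 ± 0.15 in CpG-STAT3dODN (adjusted p = 0.034); in the 10 libraries it rose by 0.79 ± 0.14 and 0.82 ± 0.14 (adjusted p 0.00571 and 0.0115). The second call was lost without any of 10 single libraries, with the 2 groups alone, without the filter, with quantile normalization or with an RPKM floor of 5 (adjusted p 0.051 to 0.179).

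Scd1 was 24.2, 23.2, 21.5 and 37 RPKM in PBS, 7.65, 7.55, 6.48 and 6.33 in CpG-scrODN, and 10.6, 4.56, 10.7 and 11.9 in CpG-STAT3dODN, without overlap between PBS and either group. It fell by 1.75 ± 0.25 (limma adjusted p = 0.00139) and by 1.44 ± 0.25 (adjusted p = 0.00991); the second call was lost with the 2 groups alone (adjusted p = 0.0748). In the 10 libraries it fell by 1.58 ± 0.22 and 1.4 ± 0.24 (limma adjusted p 0.00151 and 0.00908). Lipa was 7, 6.02, 6.14 and 8.45 in PBS, 4.04, 3.86, 4.02 and 5.73 in CpG-scrODN, and 4.57, 4.15, 5.03 and 4.64 in CpG-STAT3dODN. It fell by 0.55 ± 0.13 in CpG-scrODN (limma adjusted p = 0.0288), with PBS above every other library; this call was lost without PBS replicate 1 or 4, without CpG-scrODN replicate 1, 2 or 3, with the 2 groups alone, and with quantile or size factor scaling or an RPKM floor of 5 (adjusted p 0.058 to 0.106). In the 10 libraries Lipa fell by 0.46 ± 0.12 in CpG-scrODN (limma adjusted p = 0.0466). In CpG-STAT3dODN against PBS the difference was -0.49 ± 0.13 (adjusted p = 0.0933), and -0.4 ± 0.13 in the 10 libraries (adjusted p = 0.146). Without both libraries that stood apart, Stard5, a sterol carrier named after its value was seen, also passed in CpG-scrODN against PBS, at -0.31 ± 0.07 (limma adjusted p = 0.0247). In these 10 libraries 3 of 70 genes fell in CpG-scrODN and 1 of 70 in CpG-STAT3dODN against PBS, where 5.28% and 2.71% of all genes did. Scd1 and Lipa were lower, and Abcg1 higher, in groups that also held less B cell RNA, and the part of B cells was not tested.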

How the data were processed

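The 12 libraries were measured by RNA sequencing, and each deposited table gives RPKM per gene symbol, which the authors made; per the submitters' processing notes the build was mm10 and the tools named were TopHat 1.3.1 and Partek 6.12.0713, without their roles. The sources used here state neither annotation, filters nor strand of counting. Values were used as deposited on the log2(RPKM + 1) scale, on which changes of low genes look smaller than they are. Genes reaching RPKM 1 in 4 or more of 12 libraries were tested with limma 3.58.1 in R 4.3.3, with moderated variances and an intensity trend, in one model of the 3 labelled groups. Calls are two-sided at a Benjamini-Hochberg adjusted p under 0.05 over 10886 genes within each comparison, intervals are 95%, and SD is over n = 4. Low values were multiples of 1 read, within 0.05, in 57.9% to 61.2% of cases, too few for a count test. No 2 libraries held identical values. The pipeline was tested on simulated data. The members and lists were chosen with earlier results of these data known. Per-library values are given for the 3 genes of each role with the largest difference, and for others picked after their values were seen. The ratios for the libraries that stood apart were chosen after the values were seen: 1.5 was intended, 1.4 was then picked with the members' ratios in view, and all 5 are therefore given. Replicate numbers were not taken as pairs. Alternatives tried were the pseudocount, the filter, scaling, library weights, a replicate block and leaving out libraries.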

Additional observations from a re-analysis of the deposited data

Results flagged for a closer look

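In 87 groups of 4 libraries, 1 for each gene and label, 9 held a library far from the other 3. Its gap to the nearest passed Dixon's 95% limit, whose nominal rate is about 1 in 20 independent groups. These groups share 12 libraries, and the share flagged over all genes tested is not given here. Both libraries that stood apart lay above the other 10 in 23.4% of all genes and below them in 18.8%. These shares bear only on the flags in those libraries. With no share over all genes for the other flags, the 9 are not read as a trait of the sterol genes. PBS replicate 4 was high for Hmgcs1 (28.7 RPKM, the others 11.7 to 13.1) and Sc5d (12.8, the others 6.67 to 7.33). Dhcr7 was low in PBS replicate 4 (8.22, the others 16.5 to 18.2) and in CpG-STAT3dODN replicate 4 (7.77, the others 19.7 to 21.7). Fdps was low in PBS replicate 3 (23.4, the others 36.7 to 37.6). CpG-scrODN replicate 4 was low for Mvk (5.38, the others 6.17 to 6.29) and Scap (25.6, the others 31.1 to 31.6). Replicates 4 of PBS and CpG-STAT3dODN were near these values, at 5.43 and 5.5 for Mvk and 25.6 and 25.3 for Scap. Mvk was as low in PBS replicate 3 (5.43) and CpG-STAT3dODN replicate 2 (5.14). CpG-STAT3dODN replicate 2 was low for Nsdhl (6.36, the others 9.12 to 9.63) and high for Abca1 (1.77, the others 0.731 to 0.874).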

How the results depend on the processing

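With no call among the 29 genes in any comparison, alternatives could only add calls. In CpG-scrODN against PBS, limma array quality weights called 8 genes (Fdft1, Fdps, Hsd17b7, Insig1, Nr1h2, Pmvk, Srebf2 and Tm7sf2), while 16.6% of all genes were called. No filter on low values, quantile normalization, size factor scaling, and leaving out PBS replicate 4 and CpG-STAT3dODN replicate 4 together called 1 gene each, Fdft1. Leaving out single libraries gave 0 to 1 of 29 genes, while 2.56% to 5.14% of all genes were called. Fdft1 was called without CpG-STAT3dODN replicate 4 and Pmvk without PBS replicate 3, each with 5.14% of all genes. Array quality weights called 4 genes in CpG-STAT3dODN against PBS (11.5% of all genes) and 2 in CpG-STAT3dODN against CpG-scrODN (5.58%). The weighting stopped before its convergence tolerance, and the cause of its extra calls was not tested. Over all genes, CpG-scrODN against PBS gave 12 higher and 440 lower calls, 75 and 318 after quantile normalization, 730 and 1082 with weights, and 111 and 575 without both libraries that stood apart.

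The replicate block called 0 of 29 genes in each comparison, with 523, 213 and 0 calls over all genes. Same-numbered libraries correlated in their deviations between -0.34 and 0.82. The 0.82 was that of PBS and CpG-STAT3dODN replicates 4, the libraries that stood apart. CpG-scrODN replicate 4 correlated at 0.19 with PBS replicate 4 and at 0.15 with CpG-STAT3dODN replicate 4. For replicates 1 to 3 the correlations lay between -0.34 and 0.33, so the numbers were not taken as pairs. With the block Lipa passed in CpG-STAT3dODN against PBS (adjusted p = 0.0462 in limma). In simulated data of CpG-scrODN against PBS, changes of 0.5 on the log2 scale were recovered for 54% of the changed genes. This share does not give the recovery of each of the 29 genes.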
